A study of Mus musculus with 8 samples.

Results

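Irf1 and 8 other genes known to respond to interferon were followed in mouse embryonic stem cells that had kept or lost the histone demethylases Jmjd1a and Jmjd1b. The genes were Irf1, Gbp2, Irgm1, Nmi, Trim12c, Oasl2, Oas1a, Ifitm3 and Ly6e, and a probe set was taken when it carried one of these symbols alone and its values spanned at least 0.01 on the log2 scale over the 8 arrays. This rule found 12 probe sets with such a symbol, of which 10, covering all 9 genes, passed the span and 2 did not, out of 45101 probe sets on the array and 11502 that passed the span in all. By gene, these are 9 of 7181 genes with a measured probe set. The 9 genes were selected on their levels in the 4 genotypes on these same arrays, since earlier results of the data were known when they were listed, and the span uses those arrays too. Levels and differences of these genes are therefore a description, and each p-value is to be read against the share of all measured probe sets that passed the same threshold.

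The study measured RNA of 4 genotypes, with 2 arrays each, labelled as biological replicates. Wild-type cells (WT) had the genotype Jmjd1a+/+; Jmjd1b+/+, Jmjd1a-KO cells lacked Jmjd1a, Jmjd1b-KO cells lacked Jmjd1b, and double-KO cells lacked both. Jmjd1a and Jmjd1b, now named Kdm3a and Kdm3b, remove methyl groups from lysine 9 of histone H3, a mark of silent chromatin. All cultures grew in medium with knockout serum replacement, a little fetal calf serum and LIF, a cytokine that holds stem cells in their undifferentiated state. The double-KO cells were derived from the Jmjd1a-deficient line 31-1, in which a conditional Jmjd1b allele was deleted by MerCreMer, a Cre recombinase that works only in the presence of OHT, in lines #117 and #131. The Jmjd1b-deficient lines of the design text, D23.6 and D4.1, came from the targeted line YY90 after a Cre-expressing adenovirus, whereas the sample labels speak of cells from mice. The protocol of every sample names 800 nM OHT, and none of the labels marks a control for OHT. The labels do not say which array holds which line, so a loss of a demethylase and a difference between the lines cannot be told apart.

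Interferons are secreted alarm signals, and cells that bind them activate STAT proteins through the JAK kinases. Targets of the pathway carry a palindromic element called GAS or the interferon-stimulated response element, ISRE, which IRF1 and other interferon regulatory factors can bind. IRF1 is itself a target of the GAS pathway and switches on antiviral and antigen presentation genes. Embryonic stem cells are known for a weak interferon response, and for keeping a few of these genes, such as IFITM genes, active without interferon.

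The promoters show which of the 9 genes carry these elements close to their annotated start. RefSeq promoter windows of build GRCm38.p6, from 250 bases before to 50 bases after each start, were matched for 8 of the 9 genes, all but Ly6e. They were searched on both strands for GAAA followed after any 2 bases by GAAA, the ISRE core, and for TTCNNNGAA, the GAS core, which is its own reverse complement. At least one of these cores was found in 6 genes, and their stretches are printed from 5′ to 3′ on the strand of the gene, with the matches in capitals.
Irf1, GAS core, chr11:53769889-53769967, plus strand: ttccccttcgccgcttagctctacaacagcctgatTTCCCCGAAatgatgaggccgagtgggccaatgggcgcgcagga
Gbp2, ISRE core on the opposite strand, chr3:142620569-142620648, plus strand: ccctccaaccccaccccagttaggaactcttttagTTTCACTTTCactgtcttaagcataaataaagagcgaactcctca
Trim12c, ISRE core on the opposite strand, chr7:104353350-104353413, minus strand: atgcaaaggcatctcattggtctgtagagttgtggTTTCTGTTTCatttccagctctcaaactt
Irgm1, a pair of overlapping ISRE cores, chr11:48871421-48871485, minus strand: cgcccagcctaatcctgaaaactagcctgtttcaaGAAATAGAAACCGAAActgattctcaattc
Oas1a, a pair of overlapping ISRE cores, chr5:120907526-120907580, minus strand: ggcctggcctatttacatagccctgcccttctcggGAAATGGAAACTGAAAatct
Ifitm3, ISRE cores just after the annotated start, chr7:141010715-141010744, minus strand: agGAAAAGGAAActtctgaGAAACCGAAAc

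The ISRE core occurred in 3.44% of the 32851 promoter windows of the table and in the windows of 5 of the 8 genes: Gbp2, Irgm1, Trim12c, Oas1a and Ifitm3. The GAS core occurred in 8.3% of the windows and in those of 3 genes, Irf1, Oas1a and Ifitm3. In Oas1a it lay at bases -98 to -90, outside the printed stretch, and in Ifitm3 at bases 14 to 22, where it overlaps the second ISRE core. The windows of Nmi and Oasl2, and that of the second annotated start of Irf1, held neither sequence of letters. Interferon genes are known for such elements and the 9 genes were chosen as interferon genes, so these counts describe them and test nothing. A match is a run of letters and not a measured binding site.

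**Figure D1:**
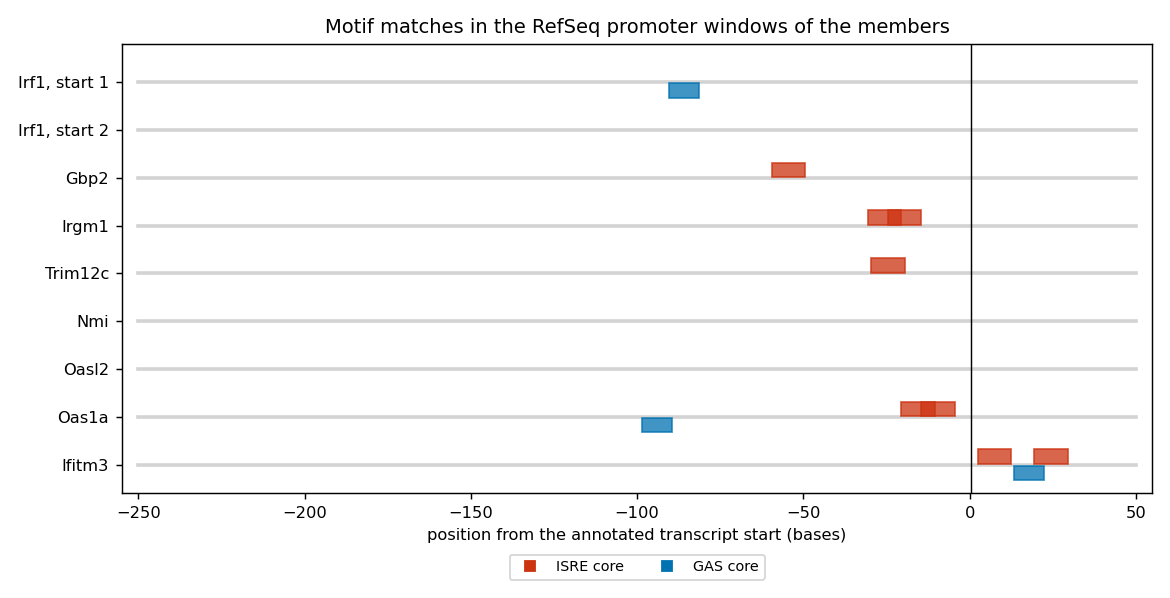
Positions of the ISRE core (red) and the GAS core (blue) in RefSeq promoter windows, in bases from the annotated transcript start (vertical line, 250 before to 50 after), with 1 row per annotated start. The ISRE cores of Gbp2, Irgm1, Trim12c and Oas1a lie before the start and those of Ifitm3 after it, and Nmi, Oasl2 and the second start of Irf1 have no match.

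The deleted genes and the arrays as a whole were looked at first. Kdm3a read at least 12.73 on the log2 scale in WT and Jmjd1b-KO and at most 5.08 in Jmjd1a-KO and double-KO. Kdm3b, by its measured probe set, read at least 9.81 in WT and Jmjd1a-KO and at most 7.66 in Jmjd1b-KO and double-KO, so both genes followed the labels. The medians of the 8 arrays lay between 6.80 and 6.81 and their lower quartiles between 6.34 and 6.35. The replicates of Jmjd1a-KO and of double-KO differed from each other more than those of the other groups, with an SD of the replicate difference over all measured probe sets of 0.345 for Jmjd1a-KO, 0.3 for double-KO, 0.161 for WT and 0.12 for Jmjd1b-KO. A level near or below the lower quartile may be background, so the size of a difference that ends there is uncertain. As a measure of RNA quality, the 3′ probe set of Actb exceeded the 5′ one by 0.50 to 0.61 on the 8 arrays, with the groups overlapping. For Gapdh the same difference was -0.04 to 0.02 in double-KO and -0.10 to -0.07 on the other 6 arrays, so double-KO stood slightly apart, and the part of this in the results was not tested.

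Markers of embryonic stem cells were present on every array: 12 of 12 were measured, with a mean level per array of 11.26 to 11.29 in WT, 11.58 to 11.73 in Jmjd1a-KO, 11.41 on both Jmjd1b-KO arrays, and 10.97 and 11.83 in double-KO. The first double-KO array was the lower one, with Esrrb at 7.68 against 9.58 on the second and Fgf4 at 7.58 against 10.37. Of 9 immune cell markers with a probe set, 8 were flat, among them Ptprc and Csf1r, and Cd68 read 6.80 to 6.94 in WT, 6.91 to 7.03 in Jmjd1a-KO, 7.13 to 7.22 in Jmjd1b-KO and 7.36 to 7.68 in double-KO. Fibroblast markers, for which 9 of 13 were measured and Dcn, Lox, Lum and Pdgfra were flat, had means of 8.82 to 8.99 in WT, 7.64 to 7.85 in Jmjd1a-KO, 6.65 to 6.82 in Jmjd1b-KO and 7.66 to 7.86 in double-KO. The means of Jmjd1a-KO and double-KO overlapped, but single markers did not move together. At an adjusted p under 0.05 by limma, 3 of the 9 were higher in double-KO than in Jmjd1a-KO (Acta2, Tagln and Col3a1). At the same threshold 4 were lower, among them Col1a1 and Col1a2. Of all measured probe sets 17.0% were higher and 11.9% lower in this comparison. Endoderm markers, for which 4 of 8 were measured and Afp, Foxa2, Gata4 and Sox7 were flat, had means of 6.72 to 6.83 in WT, 7.09 to 7.23 in Jmjd1a-KO, 6.30 to 6.31 in Jmjd1b-KO and 7.30 to 7.71 in double-KO. Of 6 endothelial markers 2 were measured, with means of 7.53 to 7.56 in WT, 7.62 in Jmjd1a-KO, 8.15 to 8.22 in Jmjd1b-KO and 7.24 to 7.45 in double-KO. The part of these markers in the results below was not tested.

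Of the 9 genes 6 shared one order: Irf1, Gbp2, Irgm1, Nmi, Trim12c and Oasl2 were lowest on both Jmjd1a-KO arrays and highest on both double-KO arrays. This held for 7 of the 10 probe sets that passed the span, since Gbp2 has a pair of them, and for 1.5% of all measured probe sets. Taken singly, 5.34% of these had both Jmjd1a-KO arrays below the other 6, and 24.2% had both double-KO arrays above the other 6. Ifitm3 and Oas1a went the other way in double-KO cells, where both arrays lay below the other 6, a position that 17.0% of measured probe sets took. Ly6e was low in both groups without Jmjd1a and high in both groups with it.

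**Figure D2:**
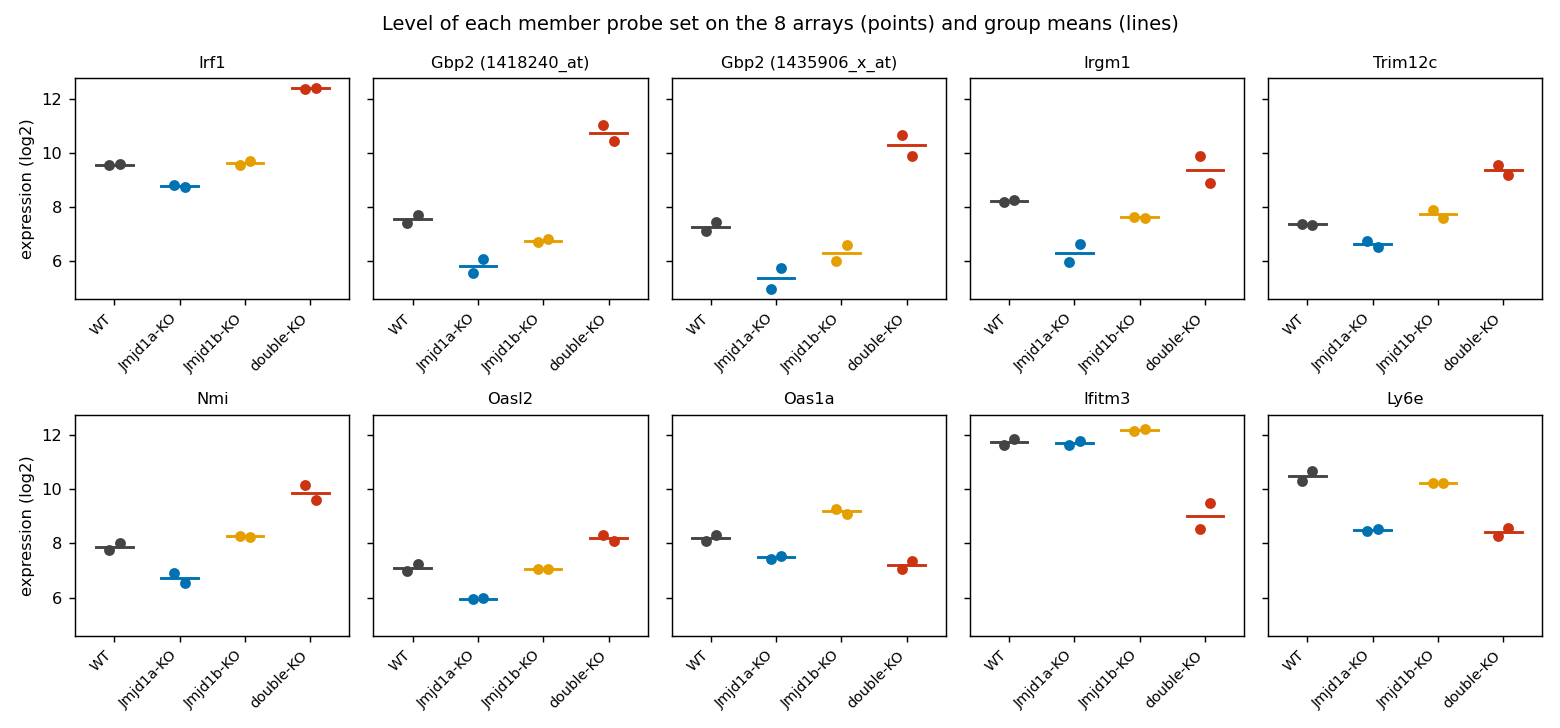
Level of each measured probe set of the 9 genes on the log2 scale of the deposited table, by genotype; points are single arrays (2 per group) and lines are group means. In the panels of Irf1, Gbp2, Irgm1, Trim12c, Nmi and Oasl2 the double-KO points are highest and the Jmjd1a-KO points lowest, whereas Ifitm3 and Oas1a are lowest in double-KO and Ly6e is low in both groups without Jmjd1a.

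Irf1, the transcription factor of the set, lies at chr11:53770014-53778374 in GRCm38.p6 and was read by 1 probe set. Its level was 9.54 and 9.57 in WT, 8.79 and 8.74 in Jmjd1a-KO, 9.56 and 9.70 in Jmjd1b-KO, and 12.37 and 12.38 in double-KO. The replicates lay close together, only WT and Jmjd1b-KO overlapped, and no array of Irf1 came near the lower quartile. In double-KO it rose by 2.82 ± 0.07 on the log2 scale against WT (SE, n = 2 arrays per group, limma, adjusted p = 3.16e-05), which is 7.07-fold, and it was 12.2-fold above Jmjd1a-KO (3.61 ± 0.07, adjusted p = 1.5e-05). Loss of Jmjd1a alone went the opposite way, with a fall of 0.79, or 1.73-fold (adjusted p = 0.00405). Loss of Jmjd1b alone gave a difference of 0.08 ± 0.07 (adjusted p = 0.422). In order of level, Jmjd1a-KO was below WT, WT and Jmjd1b-KO did not differ beyond their spread, and double-KO stood above them.

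The GTPases Gbp2 and Irgm1 belong to families that attack the vacuoles of intracellular pathogens. Gbp2 is at chr3:142620663-142638008 and had the widest span of the set, read by a plain probe set, with the suffix _at, and by one with the suffix _x_at, which marks probes that may also bind related transcripts. By the plain probe set its level was 7.40 and 7.69 in WT, 5.55 and 6.06 in Jmjd1a-KO, 6.68 and 6.80 in Jmjd1b-KO, and 11.02 and 10.44 in double-KO. By the _x_at probe set it was 7.10 and 7.42, 4.96 and 5.73, 5.99 and 6.58, and 10.66 and 9.88 in the same order of groups. Both probe sets put the 4 groups in the same order with no overlap, and both had the Jmjd1a-KO arrays below the lower quartile. Against WT, Gbp2 rose by 3.19 ± 0.25 (adjusted p = 0.000533) and 3.01 ± 0.38 (adjusted p = 0.00208) in double-KO, or 9.12-fold and 8.07-fold. It fell by 1.74 ± 0.25 (adjusted p = 0.0126) and 1.91 ± 0.38 (adjusted p = 0.0254) in Jmjd1a-KO, so that double-KO stood 30.4-fold and 30.3-fold above Jmjd1a-KO. The call in Jmjd1a-KO was lost without either WT array, at adjusted p = 0.0599 and 0.0836 by the plain probe set and 0.0917 and 0.135 by the _x_at one. The latter also lost it without Jmjd1a-KO replicate 1 (-1.53, adjusted p = 0.0823) and without either Jmjd1b-KO array (adjusted p = 0.0511). In Jmjd1b-KO the differences from WT were -0.81 ± 0.25 (adjusted p = 0.0648) and -0.97 ± 0.38 (adjusted p = 0.111), neither past the threshold of 0.05. By the plain probe set that difference passed the threshold without either Jmjd1a-KO array (adjusted p = 0.0432) and without either double-KO array (adjusted p = 0.0449).

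Irgm1, at chr11:48865245-48871420, encodes an IRG family GTPase that restrains other members of its family. It read 8.18 and 8.25 in WT, 5.97 and 6.61 in Jmjd1a-KO, 7.63 and 7.60 in Jmjd1b-KO, and 9.88 and 8.87 in double-KO. The groups did not overlap, but the double-KO replicates lay far apart (SD 0.71), and 1 Jmjd1a-KO array was below the lower quartile. The rise in double-KO against WT was 1.16 ± 0.35 (adjusted p = 0.0398). It became 0.65 (adjusted p = 0.11) without the first double-KO array and 1.66 (adjusted p = 0.0101) without the second, and the call was also lost without WT replicate 1 (1.12, adjusted p = 0.141), WT replicate 2 (1.19, adjusted p = 0.125) or either Jmjd1b-KO array (1.16, adjusted p = 0.0729). Against Jmjd1a-KO the double-KO level was 3.08 ± 0.35 higher (adjusted p = 0.00365). Jmjd1b-KO differed from WT by -0.60 ± 0.35 (adjusted p = 0.251), not past the threshold. It passed in a limma fit of only the groups compared (adjusted p = 0.00269), where 44.1% of all measured probe sets did. The difference between Jmjd1a-KO and WT was -1.93 ± 0.35 (adjusted p = 0.021), a call lost without either WT array (adjusted p = 0.0933 and 0.116), without Jmjd1a-KO replicate 1 (-1.61, adjusted p = 0.0725) and without either Jmjd1b-KO array (adjusted p = 0.0539).

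Nmi, at chr2:51948498-51973489, encodes a partner of STAT and MYC proteins, and Trim12c, at chr7:104338754-104353358, a ubiquitin ligase related to the retrovirus restriction factor TRIM5. Nmi read 7.75 and 8.01 in WT, 6.92 and 6.52 in Jmjd1a-KO, 8.28 and 8.23 in Jmjd1b-KO, and 10.15 and 9.60 in double-KO. Trim12c read 7.37 and 7.32 in WT, 6.73 and 6.50 in Jmjd1a-KO, 7.87 and 7.58 in Jmjd1b-KO, and 9.54 and 9.18 in double-KO. For both genes the order was Jmjd1a-KO, WT, Jmjd1b-KO and double-KO with no overlap, but WT and Jmjd1b-KO did not differ past the threshold, with 0.38 for each gene (adjusted p = 0.248 for Nmi and 0.132 for Trim12c). Nmi passed in a limma fit of only the groups compared (adjusted p = 0.0404), where 44.1% of all measured probe sets did. Trim12c passed with array weights (48.0% of all) and with a replicate block (18.4% of all). Double-KO was 4.0-fold above WT for Nmi (2.00 ± 0.22, adjusted p = 0.00137) and 4.04-fold for Trim12c (2.01 ± 0.16, adjusted p = 0.000548). Jmjd1a-KO was below WT by 2.23-fold for Nmi (-1.16 ± 0.22, adjusted p = 0.023) and by 1.66-fold for Trim12c (-0.73 ± 0.16, adjusted p = 0.0326). The call of Nmi in Jmjd1a-KO was lost without either WT array (adjusted p = 0.0805 and 0.128) or either Jmjd1b-KO array (adjusted p = 0.0569), and that of Trim12c without any 1 of the 6 arrays outside double-KO (adjusted p between 0.0557 and 0.138). A further Trim12c probe set was flat at 6.19 on every array and carries no measurement of a difference. Trim12c has near copies in its gene cluster, and reads of the probes from those copies could not be told apart here.

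The oligoadenylate synthetase family makes the signal that activates RNase L when double-stranded RNA is present, and its 2 members in the set, Oasl2 and Oas1a, differed. Oasl2, at chr5:114896926-114912245, read 6.99 and 7.23 in WT, 5.96 and 5.97 in Jmjd1a-KO, 7.06 and 7.07 in Jmjd1b-KO, and 8.31 and 8.10 in double-KO. The Jmjd1a-KO arrays were below the lower quartile, WT and Jmjd1b-KO overlapped, and double-KO was highest. Oasl2 rose by 1.10 ± 0.10 in double-KO (adjusted p = 0.000862) and fell by 1.14 ± 0.10 in Jmjd1a-KO (adjusted p = 0.00489), each against WT. Oas1a, at chr5:120896256-120907544, read 8.09 and 8.31 in WT, 7.44 and 7.55 in Jmjd1a-KO, 9.29 and 9.11 in Jmjd1b-KO, and 7.07 and 7.36 in double-KO. Its groups did not overlap, Jmjd1b-KO was highest, and the neighbours Jmjd1a-KO and double-KO did not differ past the threshold (-0.28, adjusted p = 0.163). Against WT, Oas1a was higher by 1.00 ± 0.13 in Jmjd1b-KO (adjusted p = 0.0087), lower by 1.63-fold in Jmjd1a-KO (-0.70, adjusted p = 0.0222) and lower by 1.98-fold in double-KO (-0.99, adjusted p = 0.00252). The call in Jmjd1b-KO was lost without WT replicate 1 (0.90, adjusted p = 0.0657) and without Jmjd1b-KO replicate 1 (0.91, adjusted p = 0.0652) or 2 (1.09, adjusted p = 0.0586). That in Jmjd1a-KO was lost without either WT array (adjusted p = 0.0698 and 0.121) and without Jmjd1a-KO replicate 1 (adjusted p = 0.0784). The mouse Oas1 genes are a cluster of close copies, so cross-binding of the Oas1a probes is possible and was not tested.

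Ifitm3, at chr7:141009590-141010744, encodes a membrane protein that blocks the fusion of viruses with endosomes. It read 11.63 and 11.85 in WT, 11.64 and 11.79 in Jmjd1a-KO, 12.17 and 12.23 in Jmjd1b-KO, and 8.52 and 9.51 in double-KO. Both double-KO arrays were far below the rest, whereas WT and Jmjd1a-KO overlapped. Ifitm3 was 6.61-fold lower in double-KO than in WT (-2.72 ± 0.30, adjusted p = 0.00144), with -2.23 without the first double-KO array and -3.22 without the second. Its difference between Jmjd1a-KO and WT was -0.03 ± 0.30 (adjusted p = 0.963), and that between Jmjd1b-KO and WT was 0.46 ± 0.30 (adjusted p = 0.301), which passed the threshold without either double-KO array (adjusted p = 0.0338). In RNA from whole cultures, fewer cells of a kind and less RNA per cell cannot be told apart.

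Ly6e, at chr15:74955025-74959904, encodes a small lipid-anchored surface protein that alters the entry of several viruses. Its measured probe set, with the suffix _s_at for probes shared by several transcripts, read 10.30 and 10.68 in WT, 8.47 and 8.53 in Jmjd1a-KO, 10.23 and 10.24 in Jmjd1b-KO, and 8.29 and 8.59 in double-KO. The 4 arrays without Jmjd1a lay below the 4 with it, with no overlap. The share of all measured probe sets that split in this way was not counted. Ly6e was 3.97-fold lower in Jmjd1a-KO (-1.99 ± 0.15, adjusted p = 0.00318) and 4.13-fold lower in double-KO (-2.05 ± 0.15, adjusted p = 0.000461) than in WT. Its difference between Jmjd1b-KO and WT was -0.25 ± 0.15 (adjusted p = 0.259) and that between double-KO and Jmjd1a-KO -0.06 ± 0.15 (adjusted p = 0.814), neither past the threshold. The other Ly6e probe set was flat at 7.11.

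Taken by comparison, 9 of the 10 probe sets were lower in Jmjd1a-KO than in WT and passed the threshold, and Ifitm3 did not. Of all 11502 measured probe sets 17.8% passed in either direction and 7.84% were lower. The median difference of the 10 was -1.15, beside 0.004 over all measured probe sets. The background moved with the arrays in the fit as well. The count of the 10 was 3 without either WT array, where 2.5% and 1.62% of all passed, and 5 without Jmjd1a-KO replicate 1 (9.11% of all) or either Jmjd1b-KO array (7.45%), while 31.9% of all passed without Jmjd1a-KO replicate 2. Of the 9, 3 (Irf1, Oasl2 and Ly6e) kept their call under each of the 16 other fits. In Jmjd1b-KO 1 of the 10 passed, Oas1a, where 23.9% of all did. It was 0 without WT replicate 1 (1.27% of all) or either Jmjd1b-KO array (2.04% and 0.904%), 2 without either Jmjd1a-KO array (33.1%) and 3 without either double-KO array (24.9%). Without WT replicate 2 the background was 5.62%.

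In double-KO against WT, 10 of 10 passed, 7 of them higher and 3 lower (Ifitm3, Oas1a and Ly6e), but 46.5% of all measured probe sets passed too, 26.9% higher and 19.6% lower. The median of the 10 was 1.58, beside 0.018 over all. Under the 16 other fits 9 of the 10 kept their call, Irgm1 being the exception. Double-KO and Jmjd1a-KO, which share the lack of Jmjd1a, differed in 8 of the 10, 7 higher and 1 lower (Ifitm3), against a background of 28.9%. Oas1a and Ly6e did not pass. Against Jmjd1b-KO, 10 of 10 differed, 7 higher and 3 lower, with a background of 50.1%, made of 28.3% higher and 21.8% lower. In Jmjd1a-KO against Jmjd1b-KO, 8 of the 10 were lower and passed, beside 27.8% of all, 15.1% higher and 12.7% lower. Without 1 array the background lay between 28.1% and 52.9% in double-KO against WT, was at least 15.5% against Jmjd1a-KO and lay between 29.2% and 56.7% against Jmjd1b-KO. It lay between 7.94% and 30.4% between the single knockouts, where it was lowest without Jmjd1b-KO replicate 2. These comparisons share arrays with one another, so their counts are not separate pieces of evidence.

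**Figure D3:**
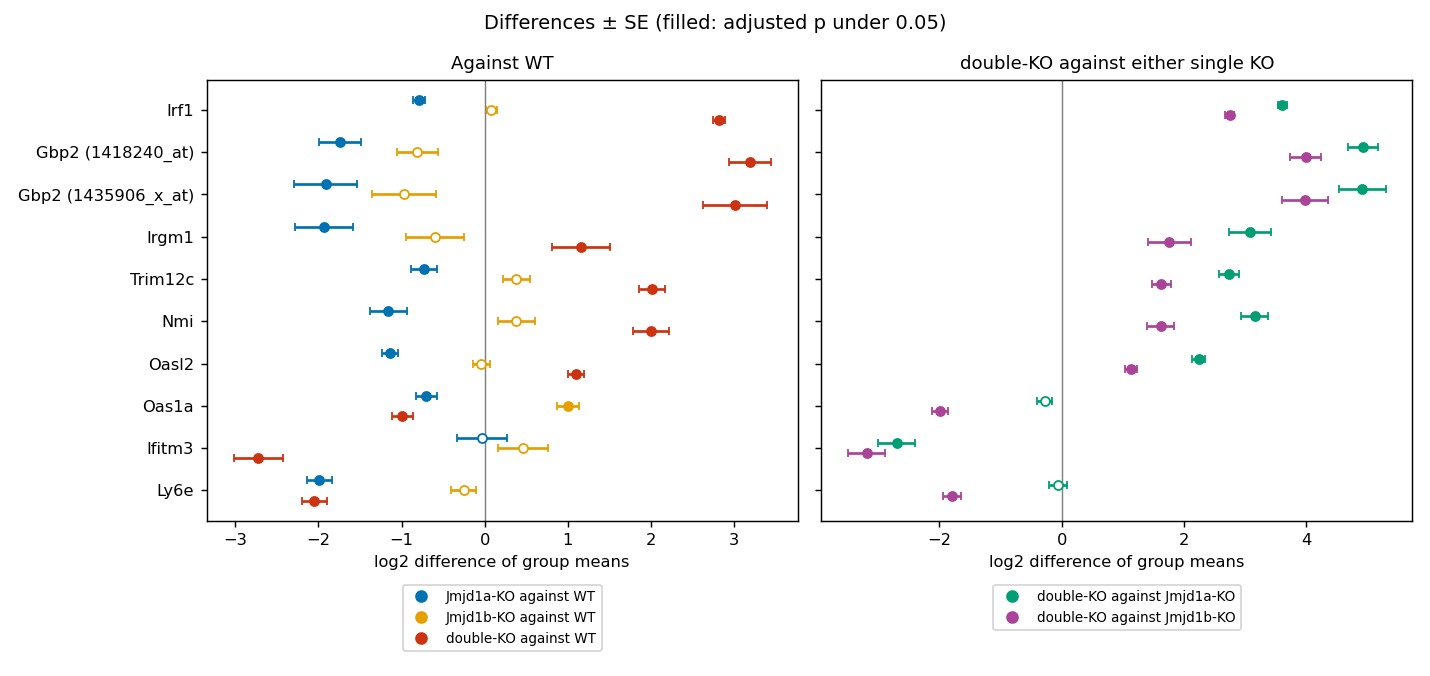
Log2 differences of group means ± SE for the 10 measured probe sets, with WT as the reference on the left and either single knockout on the right; filled points have an adjusted p under 0.05 over all measured probe sets. For Irf1, Gbp2, Irgm1, Trim12c, Nmi and Oasl2 the blue Jmjd1a-KO points lie below 0 and the red double-KO points above it, and for Ly6e both lie near -2.

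The loss of Jmjd1b thus went with another change where Jmjd1a was missing than where it was present, and this difference was tested as an interaction, double-KO minus Jmjd1a-KO minus Jmjd1b-KO plus WT. By this test 9 of the 10 probe sets passed, 7 above and 2 below 0, beside 24.9% of all measured probe sets, 13.9% above and 11.1% below. A gene lowest in Jmjd1a-KO and highest in double-KO has an interaction above 0 by that order alone. The genes were selected on these same levels, so the count is a description and no separate support. Without 1 array the 9 stayed 9, while the background lay between 7.96% without Jmjd1b-KO replicate 2 and 34.6% without Jmjd1a-KO replicate 2. For Irf1, adding the differences of both single knockouts to WT gives 8.84, and the measured double-KO mean was 12.38, an interaction of 3.54 ± 0.09 (adjusted p = 0.00016). For Gbp2 the additive level was 5.0 and the measured one 10.73 by the plain probe set, an interaction of 5.73 ± 0.35 (adjusted p = 0.00205). The _x_at probe set of Gbp2 gave 5.89 ± 0.53 (adjusted p = 0.00351). These were the widest gaps of the set, yet the additive levels of Gbp2 lie below the lower quartile of the arrays, so the gap is uncertain in size. The interactions of Irgm1 (3.69 ± 0.50), Nmi (2.78 ± 0.31), Trim12c (2.36 ± 0.23) and Oasl2 (2.28 ± 0.15) had adjusted p between 0.00205 and 0.00742. The additive levels of Irgm1 (5.69) and Oasl2 (5.92) also lie below the lower quartile, so the sizes of their gaps are uncertain too. Ifitm3 had an additive level of 12.18 and a measured one of 9.02, an interaction of -3.16 ± 0.43 (adjusted p = 0.00746). Oas1a had -1.29 ± 0.19 (adjusted p = 0.00878). Ly6e, at 8.44 against an additive 8.25, had 0.20 ± 0.21 (adjusted p = 0.526).

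**Figure D4:**
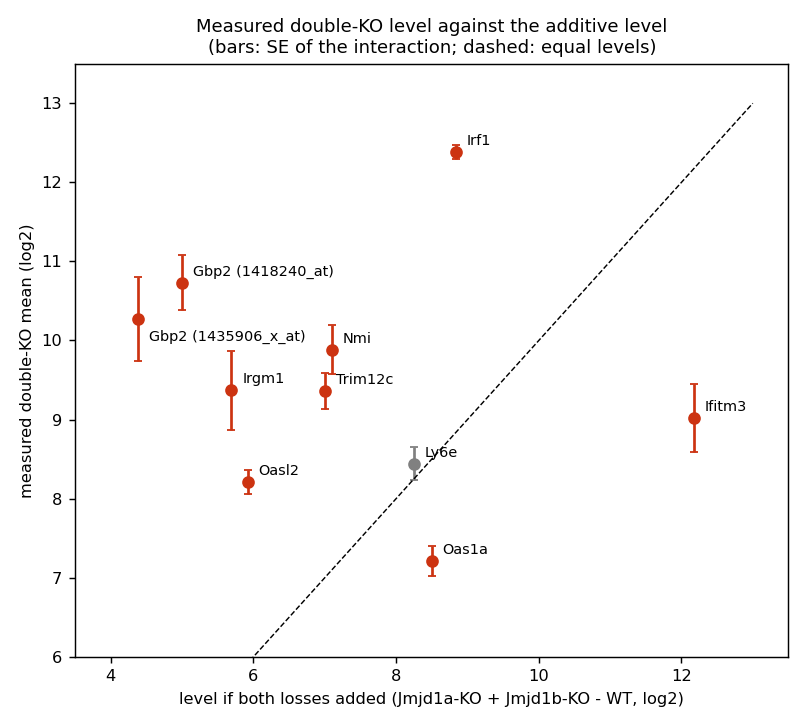
Measured double-KO mean (vertical, log2) against the level that the single knockouts would give if their differences from WT added up (horizontal, log2), for the 10 measured probe sets; bars are the SE of the interaction, the dashed line marks equal levels, and red points have an adjusted p under 0.05. Irf1, Gbp2, Irgm1, Nmi, Trim12c and Oasl2 lie above the line, Ifitm3 and Oas1a below it, and Ly6e (grey) close to it.

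The rest of the interferon pathway was counted from lists of 141 other genes in 8 groups, of which 116 had a probe set with one symbol, 56 were measured and 60 were flat. Genes without such a probe set were not analysed here. In double-KO against WT 24 of the 56 rose and 4 fell, beside 26.9% higher and 19.6% lower among all measured probe sets, and the median was 0.21. The 4 became 1 without the first WT array and 2 without the second or without the first double-KO array. Against Jmjd1a-KO 30 rose and 1 fell, with a median of 0.36 and a background of 17.0% higher and 11.9% lower, and the 1 became 3 without the second array of either group. The 30 became 11 with every probe set fitted, where 1.78% of all were higher. They became 13 with only the groups compared (3.23% of all) and 18 with array weights (8.69% of all). In Jmjd1a-KO against WT 0 were higher (3 at an unadjusted p under 0.05) and 9 lower by limma, with a median of -0.10 and a background of 9.98% higher and 7.84% lower. The 9 became 1 without the second WT array, 2 without the first, and 4 without the first Jmjd1a-KO array or either Jmjd1b-KO array, while 5 genes were higher without Jmjd1a-KO replicate 2. In Jmjd1b-KO against WT 8 rose and 4 fell, beside 12.3% and 11.5% of all. Those 8 became 1 without WT replicate 1 or either Jmjd1b-KO array, 2 without WT replicate 2, and 13 without either double-KO array, and the 4 became 0 without WT replicate 1, 2 without WT replicate 2 or Jmjd1b-KO replicate 1, and 1 without Jmjd1b-KO replicate 2.

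**Figure D5:**
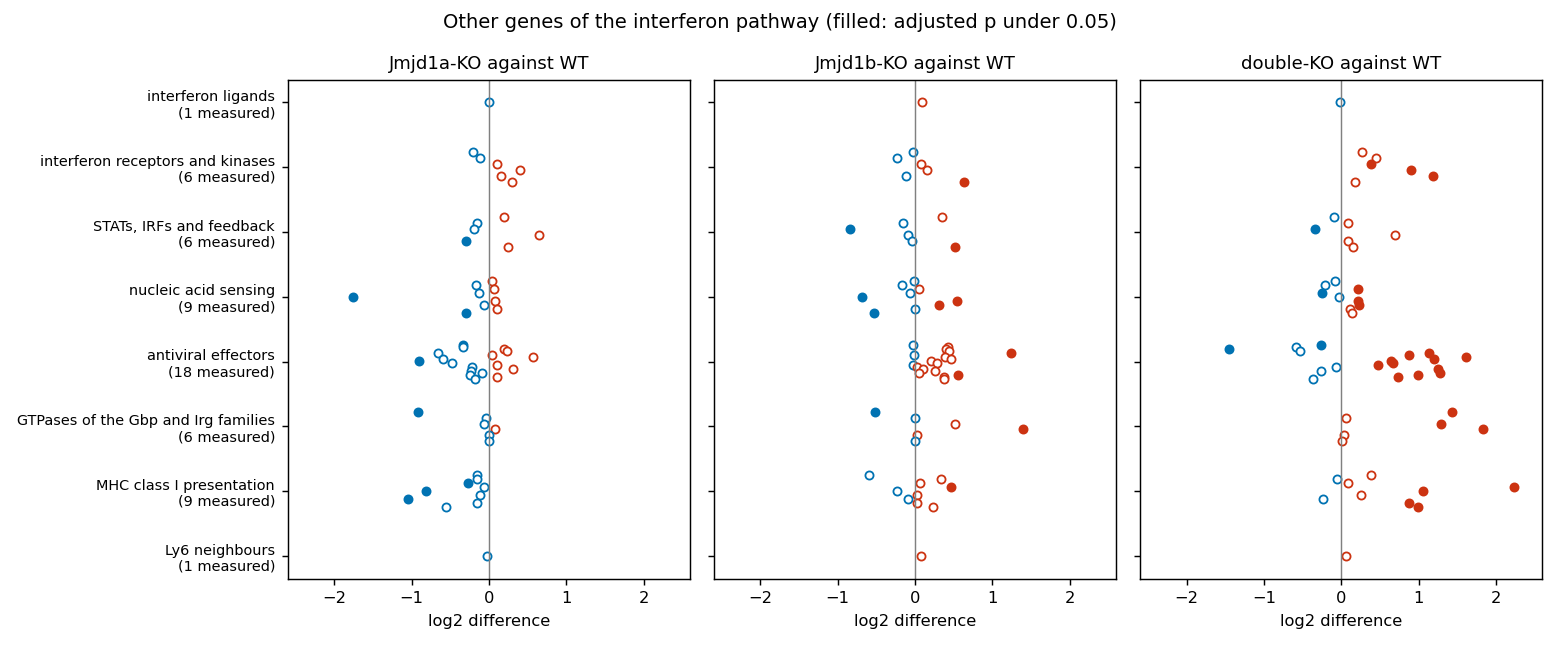
Log2 differences against WT of the 56 measured genes of 8 interferon pathway lists, 1 point per gene, in Jmjd1a-KO, Jmjd1b-KO and double-KO; red points lie above 0, blue points below, and filled points have an adjusted p under 0.05. In the double-KO panel most filled points of the antiviral effectors, the GTPases and the MHC class I list lie above 0, with Ifitm1 lowest at -1.45 and Tapbp highest at 2.23.

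At the top of the pathway little was measured. Of 10 listed interferon genes 6 had a probe set and 5 of these were flat, and the remaining one, Ifna4, differed by -0.02 between double-KO and WT (adjusted p = 0.781). Of 6 measured receptor chains and kinases 3 rose in double-KO, where 26.9% of all did, and 5 without either Jmjd1a-KO array. Jak2 rose by 1.19 ± 0.11 (adjusted p = 0.000779), Jak1 by 0.90 ± 0.12 (adjusted p = 0.00227) and Ifngr2, a chain of the interferon gamma receptor, by 0.39 (adjusted p = 0.00507). Jak1 and Jak2 are the kinases of the interferon gamma receptor. Among STATs, IRFs and feedback genes 6 of 16 with a probe set were measured, 0 rose against WT by limma (also 0 at an unadjusted p under 0.05) and 1 fell, Irf2bp2 (-0.34, adjusted p = 0.0232). That call was lost without any 1 of the WT or double-KO arrays (adjusted p between 0.0677 and 0.105). Stat2 differed by -0.09 (adjusted p = 0.573) and Irf3, read by an _x_at probe set, by 0.09 (adjusted p = 0.295). Among 9 measured genes of nucleic acid sensing 3 rose, Tbk1, Samhd1 and Rnaseh2a, and 1 fell, Adar, beside 26.9% and 19.6% of all, each by at most 0.25 and each losing its call without WT replicate 1 and in at least 3 other fits.

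Among the sensors Zbp1, which senses Z-form nucleic acids, fell by 1.76 ± 0.11 on the log2 scale in Jmjd1a-KO against WT (adjusted p = 0.00189), and kept this call under each of the 16 other fits. In double-KO it differed from WT by -0.03 (adjusted p = 0.868) and stood 1.73 above Jmjd1a-KO (adjusted p = 0.000778). Its Jmjd1a-KO arrays read 6.30 and 6.34, near the lower quartile, so the sizes of its differences from Jmjd1a-KO are uncertain. Zbp1 was singled out after its values were seen.

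The antiviral effectors were the longest list measured. Of 18 measured, 11 rose and 2 fell in double-KO against WT, beside 26.9% higher and 19.6% lower among all measured probe sets. The 11 became 6 without either WT array, and the 2 became 1 without WT replicate 1 or double-KO replicate 1 and 5 without double-KO replicate 2. Of those that rose, Dtx3l, Parp14, Trim34a and Xaf1 also lost their calls without either WT array. Herc6, an ISG15 ligase, rose by 1.61 ± 0.17, Trim30a by 1.27 ± 0.15, Pml, the organiser of nuclear bodies, by 1.25 ± 0.15, and Parp9 by 1.20 ± 0.16, with adjusted p of 0.00122, 0.00186, 0.00165 and 0.00269. The WT arrays of Herc6 (6.29 and 5.92) and Trim30a (6.26 and 6.18) lay below the lower quartile, so the sizes of these rises are uncertain. Ifi35, the protein partner of NMI, rose by 1.14 ± 0.34 (adjusted p = 0.0389), a call lost without either WT array (adjusted p = 0.125 and 0.138), without double-KO replicate 1 (0.70, adjusted p = 0.141) and without either Jmjd1b-KO array (adjusted p = 0.0706). The 2 that fell were Ifitm1 (-1.45 ± 0.23, adjusted p = 0.00449) and Oas2 (-0.26, adjusted p = 0.0131), the latter not past the threshold without WT replicate 1 (adjusted p = 0.0787) or double-KO replicate 1 (adjusted p = 0.0577). Ifitm1 is a neighbour of Ifitm3 in the same gene cluster, and its other neighbour on the list, Ifitm2, had -0.53 ± 0.22 (adjusted p = 0.0983). Trim12a, the close relative of Trim12c, rose by 0.99 ± 0.11 (adjusted p = 0.00153). Its WT arrays (6.18 and 6.23) also lay below the lower quartile, so the size of this rise is uncertain.

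Of 6 measured GTPases of the Gbp and Irg families 3 rose in double-KO, beside 26.9% of all: Igtp by 1.83 ± 0.07 (adjusted p = 0.000117), Gbp3 by 1.43 ± 0.14 (adjusted p = 0.00103) and Irgm2 by 1.29 ± 0.19 (adjusted p = 0.00323). Gbp3 was also lower in Jmjd1a-KO (-0.92 ± 0.14, adjusted p = 0.0143) as Gbp2 was, a call lost without either WT array (adjusted p = 0.0775 and 0.0899) or Jmjd1a-KO replicate 1 (adjusted p = 0.0521), while Igtp differed there by 0.08 (adjusted p = 0.439) and rose by 1.39 in Jmjd1b-KO (adjusted p = 0.00186). The Jmjd1a-KO arrays of Gbp3 (5.61 and 5.75) lay below the lower quartile, so the size of its fall is uncertain. Gbp7, Iigp1 and Ifi47 had differences of at most 0.06 in either direction between double-KO and WT. Of 9 measured genes of MHC class I presentation 4 rose, beside the same 26.9%: Tapbp, the tapasin gene, by 2.23 ± 0.12 (adjusted p = 0.000224), the immunoproteasome subunit gene Psmb8 by 1.05 ± 0.08 (adjusted p = 0.000574), the peptidase gene Erap1 by 0.99 ± 0.18 (adjusted p = 0.00742) and the proteasome activator gene Psme1 by 0.87 ± 0.11 (adjusted p = 0.00202). The class I heavy chain genes H2-K1 and H2-D1 had -0.06 (adjusted p = 0.815) and 0.09 (adjusted p = 0.3), and B2m, their partner chain, 0.39 (adjusted p = 0.141). Both heavy chain genes were read by an _x_at probe set, which may also bind related transcripts. Of their probe sets 2 of 4 were measured for H2-K1 and 1 of 9 for H2-D1. In Jmjd1a-KO against WT, where 7.84% of all were lower, 3 of the 9 fell, Psmb10 by 1.04, Psmb8 by 0.81 and H2-D1 by 0.27. Psmb10 lost this call without either WT array (adjusted p = 0.0677 and 0.0875), Psmb8 without WT replicate 2 (adjusted p = 0.0561), and H2-D1 without any 1 array other than Jmjd1a-KO replicate 2 (adjusted p between 0.0604 and 0.212). Of 8 Ly6 family neighbours with a probe set 7 were flat, and the other, Ly6k, had 0.06 in double-KO (adjusted p = 0.417).

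Genes with the most similar profile were sought among 2782 probe sets with a span of at least 1 by Pearson's r over the 8 arrays, which fall into 4 pairs of replicates. Nearest to Irf1 were Rmdn1 (r = 0.99), Gm20767 (0.985), Efhc2 (0.981), Psme1 (0.98) and Plppr1 (0.98). Nearest to Gbp2, by its _x_at probe set, were Gbp3 (0.994), Mettl18 (0.991), Nsmce4a (0.987), Psmb8 (0.983) and Med14 (0.982). Nearest to Oasl2 were Spic (0.992), Rpl39l (0.985), Nmi (0.979), Psmb8 (0.971) and Nsmce4a (0.968). Each list thus held a gene of the pathway beside genes with no listed link to interferon. Rpl39l, the second of the Oasl2 list, had a mean of 8.25 in Jmjd1a-KO, 9.96 in Jmjd1b-KO, 10.35 in WT and 11.66 in double-KO. With only 4 groups, high values of r are easily reached, and they are given as a description.

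The span threshold separated the probe sets sharply. The smallest span among those kept was 2.23, for Oas1a, and the flat probe sets of Ly6e and Trim12c spanned 2.88e-07 and 8e-09. Among the listed pathway genes the nearest below the threshold were a probe set of Trim25 (0.0011) and one of Irf2bp2 (0.00014), each of which had another probe set above it. The nearest above were Ifi47 (0.018), Iigp1 (0.07) and Gbp7 (0.12), and these 3 had no call in any comparison against WT.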

How the data were processed

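The authors deposited log2 expression values, which the submitters' processing notes tie to R 2.7.2. How background was corrected and arrays were normalized is not stated in these sources, and the scale was read from the values. Per the labels' protocols, cRNA came from 200 ng of total RNA. Of 45101 probe sets, 33599 (74.5%) spanned less than 0.01 over the 8 arrays and are called flat. The platform's gene table gave 1 symbol to 34958, several to 932 and none to 9211.

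A model of 4 group means was fitted to the other 11502 probe sets of the 8 arrays by limma 3.58.1 (lmFit, eBayes, 4 residual and 1.89 prior degrees of freedom), run under R 4.3.3. Benjamini-Hochberg adjustment covered all 11502, and the threshold was 0.05. Errors are SEs and share one variance over the groups; replicates measure the spread between cultures as far as the labels say, and their number limits the precision. The genes followed, the gene lists, the motifs and the naming rule (every probe set found by the rule, called list genes, and the 5 nearest profiles of Irf1, Gbp2 and Oasl2) were chosen with earlier results of these data known. List genes were read by the probe set with the highest mean among those measured. Data were simulated with 200 changed probe sets per run in double-KO against WT. The fit recovered 43.9%, 76.7% and 95.5% of changes of 0.5, 1 and 2, and 6.01% of its calls fell on unchanged probe sets. Each simulated probe set had one spread in all groups, whereas the replicate spread of the data differed between groups. In the data 46.5% of measured probe sets passed in this comparison. The simulated rates therefore need not hold for the data. Alternatives were quantile normalization, centring, every probe set, a span of 0.1, a mean of at least 7, only the groups compared, array weights, a replicate block, omission of each array, and stricter thresholds; their use on the pathway lists was chosen after seeing the data. Figures used matplotlib 3.10.9 in Python 3.11.15.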

Additional observations from a re-analysis of the deposited data

Results flagged for a closer look

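Of the 10 measured probe sets 9 had a difference between loss of Jmjd1b without Jmjd1a and loss of Jmjd1b with Jmjd1a that passed the threshold in the limma interaction term (n = 2 arrays per group). For Irf1 loss of Jmjd1b went with 3.61 without Jmjd1a and 0.08 with it, a difference of 3.54 (adjusted p = 0.00016). The difference was 5.73 for Gbp2 by its plain probe set (adjusted p = 0.00205) and 5.89 by its _x_at probe set (adjusted p = 0.00351). It was 3.69 for Irgm1 (adjusted p = 0.00742), 2.78 for Nmi (adjusted p = 0.00488), 2.36 for Trim12c (adjusted p = 0.00371) and 2.28 for Oasl2 (adjusted p = 0.00205). It was -3.16 for Ifitm3 (adjusted p = 0.00746) and -1.29 for Oas1a (adjusted p = 0.00878). Of all measured probe sets 24.9% passed this test. The genes were selected on these same levels, so their passing is a description. Groups of 2 arrays are too small for a test of single outlying arrays.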

How the results depend on the processing

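The number of called probe sets in Jmjd1a-KO against WT, 9, was 3 at an adjusted p under 0.01, 3 with every probe set fitted and 5 with only the groups compared, and between 3 and 9 without 1 array. In Jmjd1b-KO against WT the 1 call became 0 with every probe set, 6 with only the groups compared, 4 with array weights and 2 with the replicate block, and between 0 and 3 without 1 array. Of all probe sets fitted in Jmjd1a-KO against WT, 1.85% passed with every probe set and 3.43% with only the groups compared. In Jmjd1b-KO against WT these shares were 2.1% and 44.1%, with 48.0% for array weights and 18.4% for the replicate block. In Jmjd1a-KO against Jmjd1b-KO the 8 became 4 with every probe set, where 2.98% of all passed. Without 1 array the counts lay between 9 and 10 in double-KO against WT, 8 and 8 against Jmjd1a-KO, 9 and 10 against Jmjd1b-KO, 6 and 9 in Jmjd1a-KO against Jmjd1b-KO and 9 and 9 for the interaction. The sign turned for 3 small differences: Ifitm3 in Jmjd1a-KO (0.08 without WT replicate 2, 0.05 without Jmjd1a-KO replicate 1, range -0.13 to 0.08), Oasl2 in Jmjd1b-KO (0.08 without WT replicate 2, range -0.16 to 0.08) and Ly6e in double-KO against Jmjd1a-KO (0.09 without double-KO replicate 1, range -0.21 to 0.09). With every probe set the interactions of Irgm1, Ifitm3 and Oas1a lost their call (adjusted p = 0.0742, 0.0742 and 0.0758). The replicate block took the call from Irgm1 in double-KO against WT (adjusted p = 0.0645) and, in Jmjd1a-KO against Jmjd1b-KO, from Irgm1 (0.0654) and Gbp2 by its plain probe set (0.0642), and gave one to Trim12c in Jmjd1b-KO against WT (0.0487).

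Over all probe sets, calls fell in each comparison with every probe set fitted, where the flat ones leave 0.108 prior degrees of freedom: 2050 to 833 in Jmjd1a-KO, 2744 to 946 in Jmjd1b-KO, 5350 to 3020 in double-KO, 3329 to 1406 against Jmjd1a-KO, 5762 to 3408 against Jmjd1b-KO, 3196 to 1344 between the single knockouts and 2868 to 1496 for the interaction. With only the groups compared the first 2 were 394 and 5071, double-KO against Jmjd1a-KO 556 and the single knockouts 2118; with array weights 1280, 5526 and 1623 for the first 2 and double-KO against Jmjd1a-KO. The totals with every probe set include flat probe sets, from 512 (Jmjd1a-KO against WT) to 864 (interaction) per comparison. Calls among measured probe sets therefore fell further than those totals show. The prior variance of that fit was 9.6e-23, beside 0.0068 for measured probe sets alone, and its part in lost calls was not tested. The pathway lists in double-KO against WT had 14 higher and 1 lower with every probe set, and between 16 and 28 higher without 1 array. Of their 28 single calls 14 held under each other fit that included the gene. So did 1 of the 9 calls (Zbp1) after loss of Jmjd1a alone and 1 of the 12 (Igtp) after that of Jmjd1b alone. Of the 28, 3 more, Erap1, Ifitm1 and Irgm2, were lost with every probe set (adjusted p = 0.0908, 0.0665 and 0.0517) and under no other fit. Deviations of arrays with the same replicate number correlated at 0.239 for WT and Jmjd1a-KO and between -0.0439 and 0.073 for the other pairs of groups; not every pair exceeded 0.1, so the numbers were not taken to pair the arrays. Scaling moved the median difference over all 45101 probe sets by at most 0.0144, but most of these are flat, so this says little about the measured ones. With quantile normalization 2808 measured probe sets were higher and 2542 lower in double-KO against WT, beside 3097 and 2253 without it. The cause of these changes was not tested.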
